A study of Mus musculus with 4 samples.

Results

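Interferon-stimulated genes were followed through an RNA-sequencing series of HT22 cells, a line of immortalised neurons from mouse hippocampus. The set holds 36 genes taken by symbol from a list of sensors, signalling factors and antiviral effectors, not by a threshold on the values, out of 20089 genes in the deposited tables. All 36 were matched to a row by gene identifier. The series crossed a lentivirus with a culture condition and holds 4 libraries, 1 for each combination. Knockdown cells under OGD carried a lentivirus targeting Neat1, a long noncoding RNA that builds nuclear bodies called paraspeckles, and were put under OGD, a term taken here in its usual sense of deprivation of oxygen and glucose. Control cells under OGD carried a negative control lentivirus. Knockdown cells and control cells in normal culture carried the same viruses and were kept in DMEM/F12 medium with serum. All cultures were labelled as HT22 cells of the C57BL/6 strain, and all carried a lentivirus, so cells without any virus were not compared. The sequence of the targeting virus, the duration of OGD and any separate cultures behind a library are not stated in the labels.

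In mammalian cells, viral RNA is sensed by helicases such as RIG-I (Ddx58) and MDA5 (Ifih1), and signalling through IRF3 and IRF7 switches on the genes for type I interferons. Secreted interferon binds the receptor IFNAR1/IFNAR2, and the kinases JAK1 and TYK2 then activate STAT2, which binds DNA with IRF9 in the complex ISGF3. ISGF3 binds an element called ISRE in the promoters of interferon-stimulated genes, while interferon gamma acts through an element called GAS. Many of these genes also have a low level without added interferon.

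Promoter windows of 30 of the 36 genes were in the RefSeq table used here (GRCm38.p6). Each window is 300 bases long, from 250 bases before to 50 bases after a gene's start. The core of the ISRE, written as GAAA, then NN for any base at both places, then GAAA, and searched on both strands, was found in 13 of the 30 genes (43.3%), against 3.99% of all 27025 genes with a window. The 13 genes were Bst2, Ddx58, Eif2ak2, Gbp2, Gbp3, Ifih1, Ifit1, Ifit3, Ifitm3, Isg15, Rsad2, Stat2 and Trim21. The GAS-like letters TTCNNNGAA were found in 8 of the 30 genes (26.7%), against 9.55% of all genes. These were Adar, Bst2, Eif2ak2, Ifi35, Ifit2, Ifitm3, Irf1 and Isg20. A match is a description of the letters and not a bound site. The 3 promoters below belong to the genes with the largest ratios among those with a match to the ISRE core, and each is printed 5′ to 3′ on the gene's own strand, with the matched letters in capitals. Trim21 lies on the minus strand (chr7:102565433-102565732, GRCm38.p6) and holds 2 overlapping matches. Eif2ak2 lies on the minus strand (chr17:78882523-78882822) and holds 1 match. Gbp2 lies on the plus strand (chr3:142620413-142620712), and its match is on the opposite strand, so it reads TTTC, NN, TTTC.
Trim21: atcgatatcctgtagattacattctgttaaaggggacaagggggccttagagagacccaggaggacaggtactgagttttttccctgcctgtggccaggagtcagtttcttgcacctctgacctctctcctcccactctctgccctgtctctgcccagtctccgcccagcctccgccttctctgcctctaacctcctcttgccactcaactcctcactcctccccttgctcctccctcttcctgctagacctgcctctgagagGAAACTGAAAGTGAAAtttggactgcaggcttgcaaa
Eif2ak2: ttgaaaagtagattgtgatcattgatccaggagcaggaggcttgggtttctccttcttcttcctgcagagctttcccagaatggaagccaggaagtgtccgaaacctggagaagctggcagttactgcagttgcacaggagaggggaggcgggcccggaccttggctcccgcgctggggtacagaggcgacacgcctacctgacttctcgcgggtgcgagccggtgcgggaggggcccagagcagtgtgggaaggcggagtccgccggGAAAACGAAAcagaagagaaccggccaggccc
Gbp2: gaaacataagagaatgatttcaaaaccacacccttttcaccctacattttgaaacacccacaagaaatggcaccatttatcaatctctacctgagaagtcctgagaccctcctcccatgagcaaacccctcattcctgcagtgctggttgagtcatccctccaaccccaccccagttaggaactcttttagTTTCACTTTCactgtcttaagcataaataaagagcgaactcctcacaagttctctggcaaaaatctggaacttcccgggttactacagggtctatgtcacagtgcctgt
These genes differed in direction under OGD, with Trim21 and Gbp2 higher and Eif2ak2 lower in both knockdown and control cells. Parp14, Ifi27, Rtp4, Usp18, Dhx58 and Parp9 had no window in the table and were not searched.

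The libraries held between 17232866 and 20764430 reads assigned to genes, and from 12020 to 13813 genes reached 20 reads. Neat1 itself, the targeted gene (chr19:5824708-5845478, minus strand, GRCm38), had 824 reads in knockdown cells and 1144 in control cells under OGD. In normal culture it had 2592 reads in knockdown cells and 3789 in control cells. Its level was 1.77-fold lower with knockdown under OGD (95% interval 1.62 to 1.94) and 1.60-fold lower in normal culture (1.52 to 1.69), so neither difference reached 2-fold. Markers of neurons and of other brain cell types separated the libraries widely. The summed level of 12 neuronal markers was 210 CPM (reads scaled to a common library size, with TMM factors) in knockdown cells and 83.5 in control cells under OGD, against 32.4 in knockdown cells and 2035 in control cells in normal culture. Slc17a7, a vesicular glutamate transporter of mature neurons, had 319 reads in knockdown cells and 44 in control cells under OGD, against 6 in knockdown and 4528 in control cells in normal culture. Of 44 markers with a row in the tables, out of 50 listed, 20 were highest in knockdown cells under OGD, 2 in control cells under OGD, 0 in the knockdown library of normal culture and 22 in its control library.

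Microglia and macrophages respond strongly to interferon in brain tissue, so their 13 markers were summed as well. They came to 52.9 CPM in knockdown cells and 33.9 in control cells under OGD, against 74.0 in knockdown cells and 78.8 in control cells in normal culture. Tmem119, Csf1r and Cd68 held most of those reads, while Aif1 was at 0 in 3 libraries and Cx3cr1, P2ry12, Itgam, C1qa, C1qb and C1qc were each at 0 in at least 1 library; Ptprc and Tyrobp had no row in the tables used here. Astrocyte markers (5 genes) summed to 36.3 CPM in knockdown and 5.79 in control cells under OGD, against 1.91 in knockdown and 78.1 in control cells in normal culture. Oligodendrocyte markers (5 genes) summed to 69.7 CPM in knockdown and 9.36 in control cells under OGD, against 4.79 in knockdown and 215 in control cells in normal culture. Endothelial markers (5 genes) stayed between 5.85 and 28.7 CPM, haemoglobin and other blood markers (5 genes) between 0.326 and 43.7, and of 5 lymphocyte markers Cd79a alone had a row, with at most 38 reads. Of the 32 interferon-stimulated genes with at least 20 reads, 9 were highest in knockdown cells under OGD, 6 in the control library of OGD, 12 in knockdown cells in normal culture and 5 in the control library of normal culture. Over all 15086 genes past the same floor, 23.4%, 20.3%, 27.3% and 29.0% were highest in these libraries, in that order. The library labelled control cells in normal culture thus had the highest summed neuronal, astrocyte, oligodendrocyte, endothelial and blood markers. Its microglia and macrophage sum was close to that of knockdown cells in normal culture, but single markers of that list differed. C1qa and C1qc were at least 2-fold lower with knockdown in normal culture and for OGD in control cells. Cd68 was at least 2-fold higher in both of these comparisons. In control cells in normal culture 5 of these 13 markers reached 20 reads, against 3 in each other library. Knockdown cells under OGD came next in the neuronal, astrocyte, oligodendrocyte and blood sums. They also came next in the endothelial sum, at 8.22 CPM, close to the 7.96 of knockdown cells in normal culture. Whether the RNA of control cells in normal culture, or of knockdown cells under OGD, came wholly from HT22 cells was not tested. For the control library this bears on knockdown in normal culture and on OGD in control cells. For the knockdown library it bears on knockdown under OGD and on OGD in knockdown cells. The part of these markers in the results below was not tested. In bulk RNA, fewer cells of a type and less RNA per cell cannot be told apart.

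**Figure D1:**
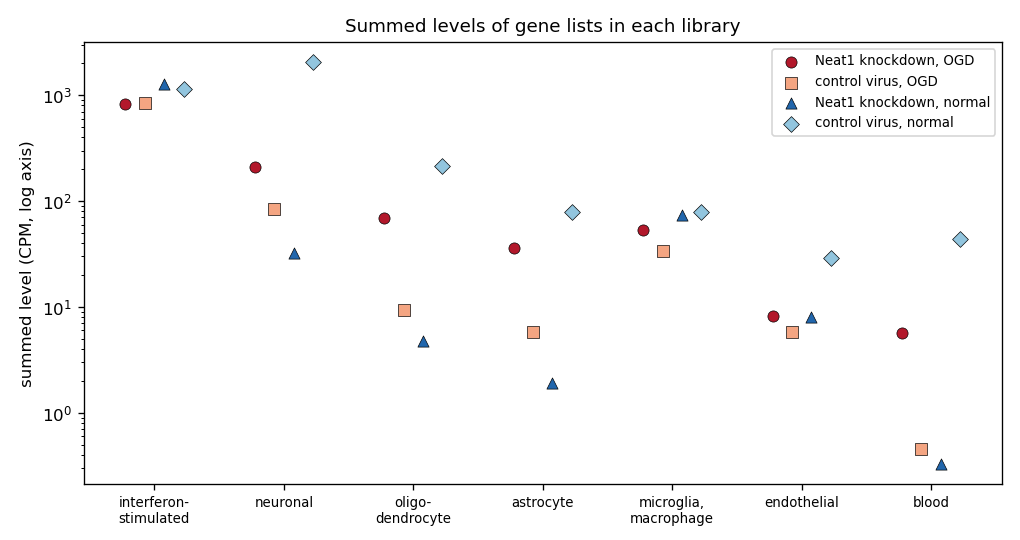
Summed level in CPM (TMM-scaled, log axis) of the 36 interferon-stimulated genes and of 6 lists of cell type markers, with 1 point per library. The interferon-stimulated genes stay between 831 and 1284 CPM, while the neuronal markers run between 32.4 and 2035. Ifitm3 alone holds 301 to 686 CPM of the set's sum, which is 497 to 598 without it, so the sum hides members with low levels.

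On a scale per transcript length (FPKM), one member stood far above the others in every library. Ifitm3, a membrane protein that blocks virus entry at endosomes (chr7:141009586-141010770), had 662 FPKM in knockdown cells and 654 in control cells under OGD, against 1487 in knockdown cells and 1447 in control cells in normal culture. Next under OGD came Isg20, an RNA exonuclease, with 145 FPKM in knockdown cells and 126 in control cells. In normal culture Bst2, the tetherin that holds budding virus at the cell surface, came next with 144 FPKM in knockdown cells and 88.6 in control cells. Most members were far lower. The median member had 3.06 FPKM in knockdown cells and 2.67 in control cells under OGD, against 3.15 in knockdown and 2.84 in control cells in normal culture. Between 7 and 8 members exceeded 10 FPKM in a library, and between 10 and 13 were under 1 FPKM. Ifit1, Ifit3, Rsad2 and Ifi44, genes strongly induced by interferon in most cells, had few reads or none. Ifit1, an inhibitor of viral RNA translation, had 18 reads in knockdown and 4 in control cells under OGD, against 0 in knockdown and 2 in control cells in normal culture. Ifit3 had 4 reads in knockdown cells under OGD and 0 in the other 3 libraries, and a near-identical gene, Ifit3b, makes its reads uncertain. Rsad2 (viperin) had 3 reads and Ifi44 had 4, both in control cells in normal culture, and 0 in the rest. A count of 0 allows a level of up to 0.14 to 0.195 CPM in these libraries. These 4 members stayed under 20 reads everywhere and entered no ratio. Of the 36 members, 32 reached 20 reads in some library and 24 in all 4.

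**Figure D2:**
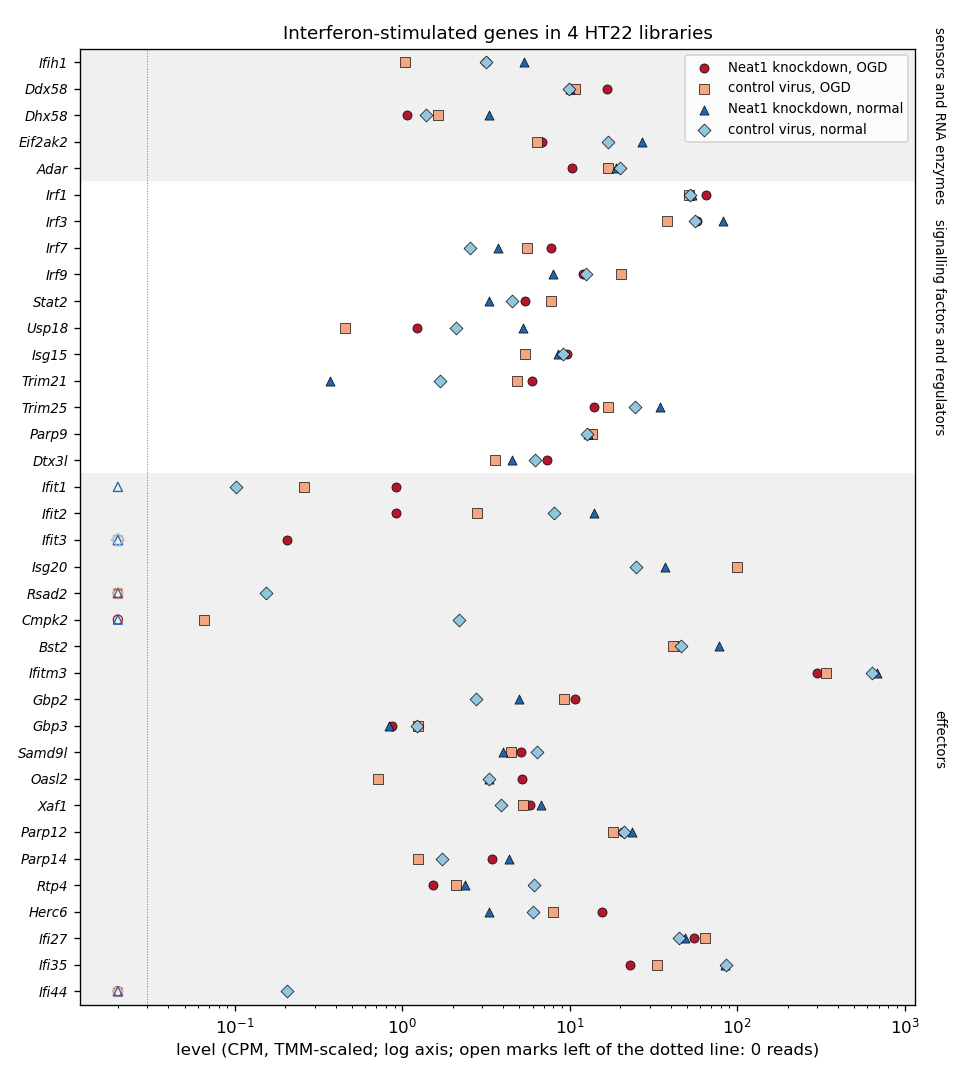
Level of each of the 36 genes in each library, in CPM (TMM-scaled, log axis), grouped as sensors and RNA enzymes, signalling factors and regulators, and effectors. Open marks left of the dotted line are libraries with 0 reads. Ifitm3 lies at the right end in every library, and Ifit1, Ifit3, Rsad2 and Ifi44 lie at the left.

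The first question the study put was what Neat1 knockdown does to mRNA levels in each culture. Ratios are log2 ratios of scaled reads, knockdown over control, with 10 added to each side, which pulls the ratios of low genes towards 0. A gene counts as higher or lower at a 2-fold ratio, a rule of size and not a test, provided that the higher library of the pair has 20 reads or more. Folds and their 95% intervals are computed without the 10 added and cover counting error only: with 1 library per group no difference has a replicate check. Under OGD, 3 of 30 members were at least 2-fold higher in knockdown cells, where 10.4% of all genes were, and 1 was at least 2-fold lower, where 4.1% of all genes were. In normal culture, 3 of 32 were higher, against 6.29% of all genes, and 3 were lower, against 16.3%. In either direction the members' share was 13.3% under OGD, where 14.5% of all genes passed, and 18.8% in normal culture, where 22.6% passed. The median log2 ratio of the members was 0.14 under OGD, with -0.0036 over all genes, and 0.07 in normal culture, with -0.03 over all genes. Counting both directions, the share of interferon-stimulated genes past 2-fold was therefore near that of all genes in both cultures, while in normal culture the split was even among them and tilted to lower over all genes.

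**Figure D3:**
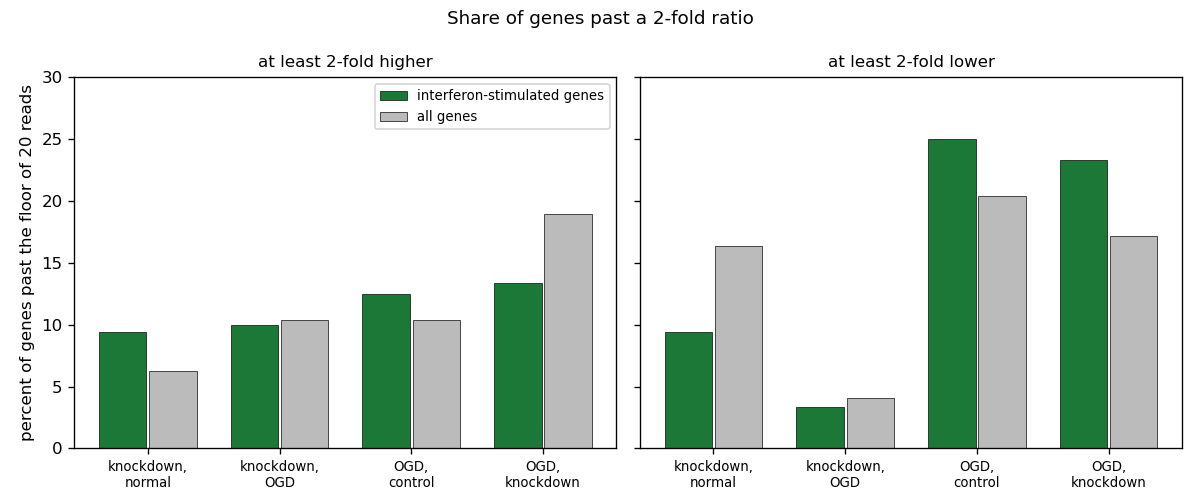
Percent of genes past the floor of 20 reads that were at least 2-fold higher (left) or lower (right) in each of the 4 comparisons, for the interferon-stimulated genes and for all genes. For OGD in knockdown cells the set has 13.3% higher and 23.3% lower, against 18.9% and 17.1% of all genes, and the set rests on 30 or 32 genes per comparison.

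The sensors and RNA enzymes differed among themselves. Ifih1, which encodes MDA5, a sensor of long double-stranded RNA (chr2:62595798-62646255), had 62 reads in knockdown cells and 16 in control cells under OGD, against 115 in knockdown cells and 62 in control cells in normal culture. It was higher with knockdown in both cultures, 3.04-fold under OGD (95% interval 1.73 to 5.64; log2 ratio 1.21) and 1.69-fold in normal culture (1.23 to 2.34; 0.68). Dhx58 encodes LGP2, a helicase that modulates the other RNA sensors. It had 21 reads in knockdown cells and 25 in control cells under OGD, against 71 in knockdown cells and 27 in control cells in normal culture. By reads knockdown cells in normal culture stood highest, 2.40-fold above their control (1.52 to 3.89), and the interval under OGD spanned no difference. By FPKM control cells under OGD stood highest, with 1.75 FPKM, against 0.50 in knockdown cells under OGD, 1.55 in knockdown cells in normal culture and 0.70 in control cells in normal culture. Eif2ak2 encodes PKR, the kinase that halts translation on binding double-stranded RNA. It had 133 reads in knockdown cells and 98 in control cells under OGD, against 584 in knockdown and 330 in control cells in normal culture. Its knockdown fold was 1.06 under OGD (0.814 to 1.40) and 1.61 in normal culture (1.41 to 1.85). Adar, the adenosine deaminase that edits double-stranded RNA and keeps it from being sensed, had 201 reads in knockdown cells and 262 in control cells under OGD, against 406 in knockdown and 391 in control cells in normal culture. It was 1.66-fold lower in knockdown cells under OGD (1.38 to 2.01), short of the 2-fold rule on the ratio with 10 added. Ddx58 lay between these, at log2 ratios of 0.60 under OGD and 0.01 in normal culture. As a group, 3 of the 5 sensors had a ratio above 0 under OGD and 4 of 5 in normal culture, with medians of 0.08 under OGD and 0.67 in normal culture.

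Irf9 and Stat2, the members that belong to ISGF3, were slightly lower with knockdown in both cultures, and neither passed 2-fold. Irf9, the DNA-binding subunit, had 234 reads in knockdown cells and 313 in control cells under OGD, against 170 in knockdown cells and 246 in control cells in normal culture. It was 1.71-fold lower under OGD (1.44 to 2.03) and 1.59-fold lower in normal culture (1.30 to 1.94). Stat2 had 106 reads in knockdown cells and 119 in control cells under OGD, against 71 in knockdown and 89 in control cells in normal culture. It was 1.43-fold lower under OGD (1.09 to 1.88) and 1.38-fold lower in normal culture, where the interval (0.995 to 1.91) reached 1. The factors that act upstream of interferon pointed the other way. Irf3, which turns on interferon genes after virus sensing, had 1128 reads in knockdown cells and 587 in control cells under OGD, against 1778 in knockdown and 1102 in control cells in normal culture, and was 1.51-fold higher under OGD (1.36 to 1.67) and 1.47-fold higher in normal culture (1.36 to 1.59). Irf7, the interferon-induced factor that amplifies the response, had 152 reads in knockdown cells and 85 in control cells under OGD, against 80 in knockdown and 50 in control cells in normal culture. Its fold was 1.40 under OGD (1.07 to 1.85) and 1.46 in normal culture (1.01 to 2.12). In the mouse annotation, exons of Irf9 overlap those of Rnf31 on the same strand, and exons of Irf3 and Irf7 overlap Bcl2l12 and Phrf1 on the opposite strand. Exons of Adar and Irf1 likewise overlap Chrnb2 and Gm17334 on the opposite strand. No source used here says whether reads were counted by strand, and those of these neighbours may be mixed.

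Among the regulators, Usp18 and Trim21 carried the largest knockdown ratios in normal culture. Usp18 encodes the protease that removes ISG15 from proteins and restrains IFNAR2 signalling (chr6:121245906-121270917). It had 24 reads in knockdown cells and 7 in control cells under OGD, against 113 in knockdown cells and 41 in control cells in normal culture. In normal culture it was 2.51-fold higher with knockdown (1.74 to 3.69; log2 ratio 1.16), and its fold under OGD, 2.69 (1.12 to 7.39), gave a log2 ratio of only 0.80 because of the 10 added. Trim21, a ubiquitin ligase that acts as an antibody receptor inside cells (chr7:102557921-102565486), had 116 reads in knockdown cells and 74 in control cells under OGD, against 8 in knockdown cells and 33 in control cells in normal culture. It was 4.52-fold lower with knockdown in normal culture (2.05 to 11.3), and 1.23-fold higher under OGD, with an interval (0.910 to 1.67) that spanned 1. The other regulators were between the 2-fold lines. Trim25, a ubiquitin ligase that activates RIG-I, had 275 reads in knockdown cells and 262 in control cells under OGD, against 741 in knockdown and 481 in control cells in normal culture, and its log2 knockdown ratios were -0.27 under OGD and 0.48 in normal culture. Isg15, the ubiquitin-like protein that names the family, is given because of its place in the pathway and was chosen with its values known. It had 188 reads in knockdown cells and 83 in control cells under OGD, against 183 in knockdown and 179 in control cells in normal culture. Dtx3l came closest to the threshold, with a log2 ratio of 0.93 under OGD and 144 against 55 reads; its exons overlap those of Parp9 on the opposite strand, and Parp9 stood at -0.03. Irf1 lay at 0.34 under OGD and 0.05 in normal culture.

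Of the effectors, Parp14 was past 2-fold in both cultures. Parp14 encodes an ADP-ribosyltransferase that is itself induced by interferon (chr16:35832874-35871544). It had 67 reads in knockdown cells and 19 in control cells under OGD, against 93 in knockdown cells and 34 in control cells in normal culture. It was 2.76-fold higher with knockdown under OGD (1.64 to 4.87) and 2.49-fold higher in normal culture (1.67 to 3.81), and both knockdown libraries were above both control libraries. The share of all genes past 2-fold in both cultures, or with that order of libraries, was not counted. Neither ratio passed with 50 added, at 0.61 under OGD and 0.70 in normal culture, or by FPKM, at 0.37 in each. Oasl2 had the largest ratio of any member under OGD. It encodes a protein related to the 2′-5′ oligoadenylate synthetases (chr5:114896936-114912234), and had 101 reads in knockdown cells and 11 in control cells under OGD, against 71 in knockdown and 65 in control cells in normal culture. Its fold was 7.20 under OGD (3.86 to 14.9; log2 ratio 2.15) and 0.996 in normal culture (0.701 to 1.42), so the control cells under OGD stood apart from the other 3 libraries. Ifit2, a partner of the other IFIT proteins in binding viral RNA (chr19:34550694-34576419), had 18 reads in knockdown cells and 43 in control cells under OGD, against 299 in knockdown and 159 in control cells in normal culture. It was 3.05-fold lower with knockdown under OGD (1.72 to 5.61) and 1.71-fold higher in normal culture (1.41 to 2.09). The FPKM columns did not show the difference under OGD: they gave Ifit2 0.63 FPKM in knockdown cells and 0.69 in control cells. Herc6, a mouse ligase for ISG15, had 304 reads in knockdown cells and 123 in control cells under OGD, against 71 in knockdown and 119 in control cells in normal culture. It was 1.94-fold higher with knockdown under OGD (1.57 to 2.41) and 1.84-fold lower in normal culture (1.36 to 2.50), with neither knockdown ratio past 2-fold.

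The effectors lower in knockdown cells in normal culture were Cmpk2 and Rtp4. Cmpk2, a mitochondrial nucleotide kinase next to Rsad2 on chromosome 12 (chr12:26469204-26479837), had 0 reads in knockdown cells and 1 in control cells under OGD, against 0 in knockdown cells and 43 in control cells in normal culture. Taking 3 reads as the limit of a count of 0, it was at least 15.7-fold lower with knockdown in normal culture. All but 1 of its reads came from control cells in normal culture, the library with the highest summed neuronal and glial markers, whose part in this ratio was not tested. Rtp4, a chaperone of receptors that binds viral RNA, had 30 reads in knockdown cells and 32 in control cells under OGD, against 51 in knockdown and 120 in control cells in normal culture, and was 2.58-fold lower with knockdown in normal culture (1.85 to 3.66). It too was highest in control cells in normal culture. The remaining effectors lay between log2 ratios of -0.61 and 0.75 in normal culture and between -0.52 and 0.20 under OGD. Ifitm3, the most abundant member, had 5890 reads in knockdown cells and 5220 in control cells under OGD, against 14738 in knockdown and 12566 in control cells in normal culture, and its log2 knockdown ratios were -0.18 under OGD and 0.10 in normal culture. Isg20 had log2 ratios of -0.01 under OGD and 0.56 in normal culture. By FPKM, with 1 added, the log2 knockdown ratio of Ifih1 under OGD was 0.55, and those of Dhx58, Usp18, Trim21 and Cmpk2 in normal culture were 0.58, 0.71, -0.56 and -0.82, all short of 2-fold.

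**Figure D4:**
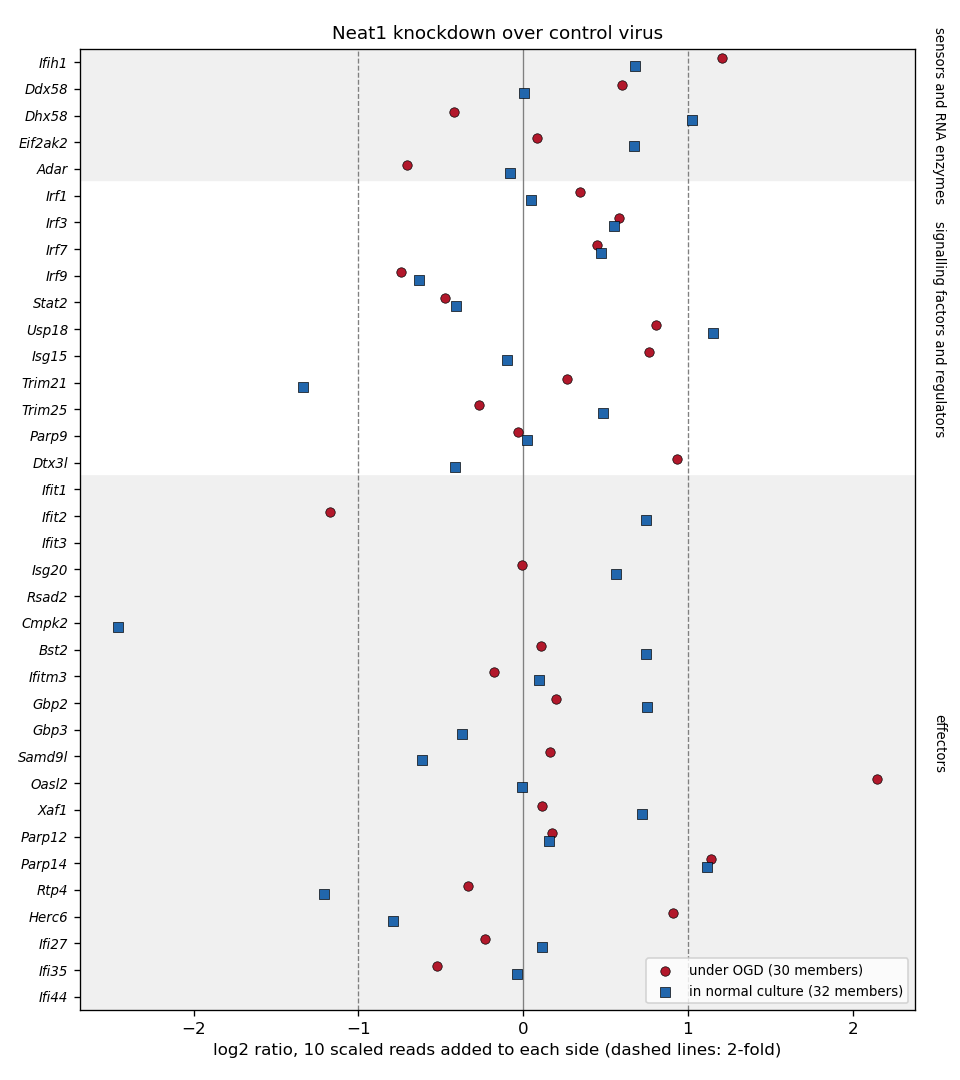
Log2 ratio of knockdown over control cells, with 10 scaled reads added to each side, for each gene under OGD (circles) and in normal culture (squares); dashed lines mark 2-fold. Parp14 is right of the 2-fold line in both cultures, Oasl2 lies at 2.15 under OGD, and Cmpk2 at -2.46 in normal culture.

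The knockdown comparisons in the 2 cultures share no library, so their signs can be set side by side. Of the 30 members with a ratio in both, 12 were above 0 in both (40%), where 23.6% of 12856 genes were: Irf3, Irf1, Eif2ak2, Irf7, Ifih1, Gbp2, Usp18, Parp14, Parp12, Ddx58, Xaf1 and Bst2. Irf9, Stat2, Adar, Rtp4 and Ifi35 were below 0 in both (16.7%), where 25.9% of all genes were. Both the member and the all-gene counts went by sign alone. The counting interval spanned no difference for Ddx58 and Irf1 in normal culture, and for Parp12 in both cultures. It did so under OGD for Eif2ak2, Gbp2, Xaf1 and Bst2. Of the members below 0, it did so for Stat2, Adar and Ifi35 in normal culture and Rtp4 under OGD. By total reads Ddx58 in normal culture was at -0.02. Under TMM scaling the 2 counts were the same, and under scaling by total reads they were 13 and 5, where 31.7% and 19.3% of all genes had those signs. By FPKM they were 14 and 5, where 30.2% and 19.3% of all genes had those signs, and Eif2ak2 under OGD (-0.31) and Irf1 in normal culture (-0.10) turned below 0. With 10 added, Parp14 alone of the 12 was past 2-fold in both, and with 1 added Usp18 was too, at 1.32 under OGD and 1.31 in normal culture. Trim21, Herc6, Oasl2, Isg15, Samd9l and Dtx3l were above 0 under OGD and below 0 in normal culture (20%), against 24.8% of all genes; 19 of 23 cell type markers had that pattern. The part of the markers in these 6 ratios was not tested. The log2 knockdown ratio under OGD minus that in normal culture was at least 1 for 4 members, where 15.1% of all genes were: Oasl2 (2.15), Herc6 (1.70), Trim21 (1.61) and Dtx3l (1.35). It was at or below -1 for Ifit2 (-1.92) and Dhx58 (-1.44), where 6.81% of all genes were. The median of this difference was -0.06 over the members and -0.04 over all genes. No test of these differences exists with 1 library per group.

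The second axis of the design set OGD against normal culture. In knockdown cells, 4 of 30 members were at least 2-fold higher under OGD, where 18.9% of all genes were, and 7 were at least 2-fold lower, where 17.1% were. In control cells, 4 of 32 were higher, against 10.4% of all genes, and 8 were lower, against 20.4%. In either direction the members' share was 36.7% in knockdown cells and 37.5% in control cells, where 36.1% and 30.8% of all genes passed. The median log2 ratio of the members was -0.08 in knockdown cells, with -0.01 over all genes, and -0.14 in control cells, with -0.04 over all genes. Counts of OGD calls were thus again near those of all genes. The comparisons in knockdown and control cells share no library, and Eif2ak2, Usp18, Ifit2 and Ifi35 were lower under OGD in both, while Trim21, Isg20 and Gbp2 were higher in both. By FPKM, with 1 added, Isg20 and Ifi35 alone of these 7 were past 2-fold with either virus. The share of all genes past 2-fold in the same direction with either virus was not counted. Nor was the share with both OGD libraries above, or below, both normal ones. The overlap of these 7 therefore has no background to be set against.

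Among the sensors, Eif2ak2 was lower under OGD with either virus. Its 133 reads in knockdown cells under OGD stood against 584 in normal culture, 4.03-fold lower (3.33 to 4.90), and its 98 reads in control cells under OGD stood against 330, 2.51-fold lower (2.00 to 3.18). Both OGD libraries were thus below both normal ones. Ifih1 was 1.70-fold lower under OGD in knockdown cells (1.24 to 2.36) and 2.89-fold lower in control cells (1.65 to 5.37), the second past the 2-fold rule. Dhx58 was 3.10-fold lower in knockdown cells (1.88 to 5.32), while in control cells its 25 and 27 reads did not differ beyond counting error. Adar was 1.85-fold lower under OGD in knockdown cells (1.56 to 2.21) and 1.11-fold lower in control cells (0.950 to 1.31). Ddx58, which encodes RIG-I, was the sensor with ratios above 0 in both, 0.70 in knockdown cells and 0.18 in control cells. Over the 5 sensors the median was -0.86 in knockdown cells and, for control cells, -0.15, with 0 higher and 2 lower in each.

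The transcription factors differed in direction under OGD. Irf7 had the highest ratios among them, 2.07-fold higher in knockdown cells (1.57 to 2.75; log2 ratio 0.96) and 2.28-fold higher in control cells (1.59 to 3.30; log2 ratio 1.03). The second ratio was just past the threshold, and fell short of it at 0.96 under TMM scaling. Irf9 was 1.50-fold higher in knockdown cells (1.23 to 1.84) and 1.71-fold higher in control cells (1.44 to 2.02), and Stat2 was 1.63-fold higher in knockdown cells (1.19 to 2.23) and 1.79-fold higher in control cells (1.35 to 2.39). Irf3 was 1.45-fold lower in knockdown cells (1.34 to 1.56) and 1.40-fold lower in control cells (1.27 to 1.55). Irf9 and Stat2 were thus each modestly above their normal-culture level under OGD with either virus, with neither gene past 2-fold, while Irf3 was below.

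Trim21 was the member with the largest positive OGD ratio. It had 116 reads under OGD and 8 in normal culture in knockdown cells, 15.8-fold higher (7.76 to 37.5), and 74 reads under OGD and 33 in normal culture in control cells, 3.01-fold higher (1.97 to 4.68). Both OGD libraries were above both normal ones, and the size of the ratio in knockdown cells rests on the 8 reads of knockdown cells in normal culture. Usp18 went the opposite way, 4.32-fold lower under OGD in knockdown cells (2.76 to 7.02) and 4.37-fold lower in control cells (1.94 to 11.5). Trim25 was 2.47-fold lower in knockdown cells (2.15 to 2.85) and 1.37-fold lower in control cells (1.18 to 1.60). For Isg15, the log2 ratios were 0.15 in knockdown cells and -0.63 in control cells. Parp9 stood at 0.03 in knockdown cells and 0.16 in control cells.

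Isg20 and Gbp2 were the effectors higher under OGD with either virus. Isg20 had 1945 reads under OGD and 795 in normal culture in knockdown cells, and 1531 under OGD and 487 in normal culture in control cells, so that it was 2.67-fold higher in knockdown cells (2.45 to 2.90) and 4.21-fold higher in control cells (3.80 to 4.68). Gbp2, an interferon-induced GTPase that attacks the vacuoles of intracellular microbes (chr3:142620602-142638008), had 210 reads under OGD and 107 in normal culture in knockdown cells, and 142 under OGD and 54 in normal culture in control cells. It was 2.14-fold higher in knockdown cells (1.69 to 2.73) and 3.53-fold higher in control cells (2.56 to 4.92). For both genes each OGD library was above each normal one. Herc6 was 4.67-fold higher under OGD in knockdown cells (3.59 to 6.13), and in control cells its log2 ratio was 0.43.

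Ifi35 and Ifit2 were the effectors lower under OGD with either virus. Ifi35, a leucine-zipper protein that binds the interferon-induced factor NMI (chr11:101448407-101458698), had 450 reads under OGD and 1807 in normal culture in knockdown cells, and 510 under OGD and 1693 in normal culture in control cells. It was 3.69-fold lower in knockdown cells (3.32 to 4.10) and 2.48-fold lower in control cells (2.24 to 2.74). Ifit2 was 15.2-fold lower under OGD in knockdown cells (9.48 to 26.1; log2 ratio -3.36), the lowest ratio of any member, and 2.76-fold lower in control cells (1.96 to 3.96). Ifitm3 was 2.30-fold lower in knockdown cells (2.23 to 2.37) and 1.80-fold lower in control cells (1.74 to 1.86); the second was short of 2-fold. Most of the gap in the summed level of the set came from this gene. The 36 genes summed to 831 CPM in knockdown cells and 836 in control cells under OGD, against 1284 in knockdown and 1142 in control cells in normal culture, and without Ifitm3 to 530 in knockdown and 497 in control cells under OGD, against 598 in knockdown and 501 in control cells in normal culture. Oasl2 was 1.55-fold higher under OGD in knockdown cells (1.13 to 2.13) and 4.41-fold lower in control cells (2.31 to 9.26). Rtp4 was 2.80-fold lower in control cells (1.88 to 4.27), and in knockdown cells its log2 ratio was -0.51. Cmpk2, with 1 read against 43 in control cells, was 32.1-fold lower with a counting interval of 5.46 to 1296. Rtp4 and Cmpk2 were among the 5 members, out of 32, that were highest in control cells in normal culture. Of all genes 29.0% were, and so were 22 of 44 cell type markers, with 20 highest in knockdown cells under OGD. The part of the markers in these ratios was not tested.

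**Figure D5:**
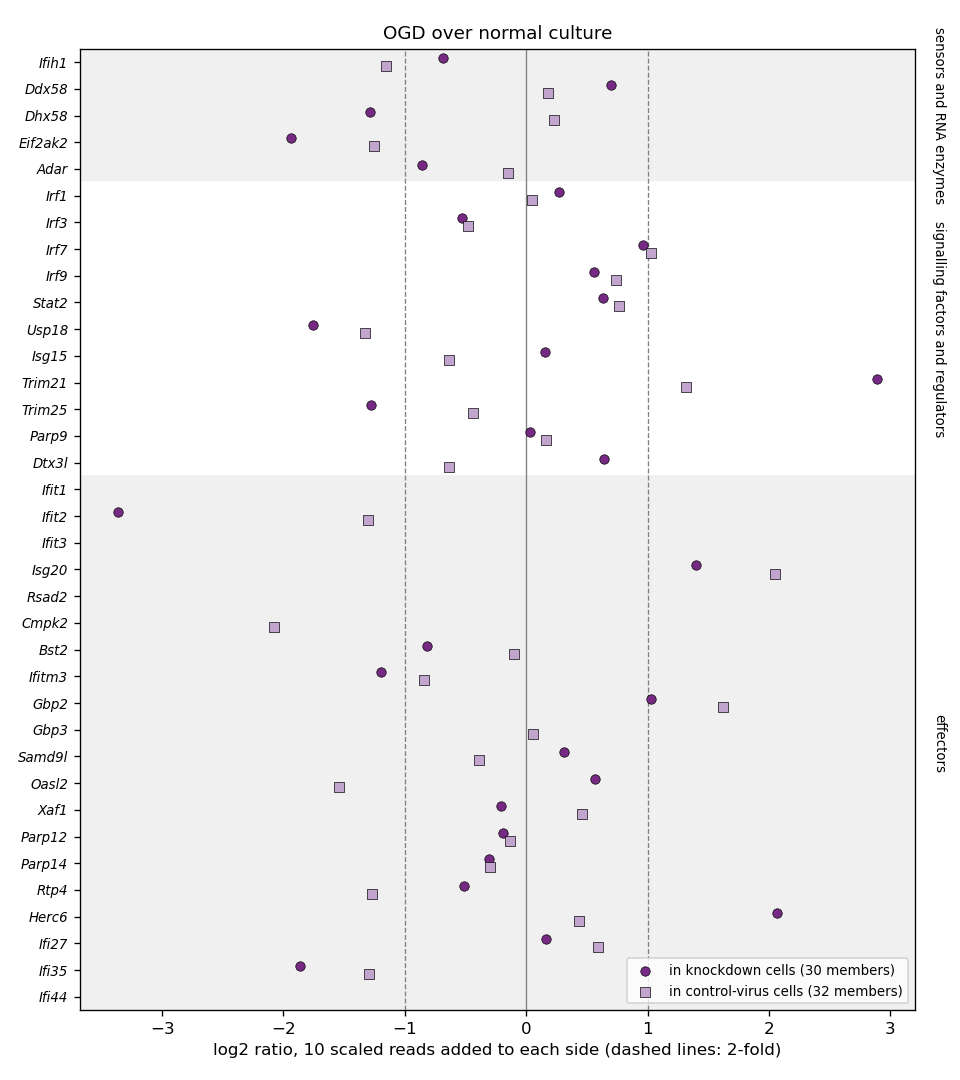
Log2 ratio of OGD over normal culture, with 10 scaled reads added to each side, for each gene in knockdown cells (circles) and in control cells (squares); dashed lines mark 2-fold. Trim21, Isg20 and Gbp2 lie right of the 2-fold line in both knockdown and control cells, and Eif2ak2, Usp18, Ifit2 and Ifi35 lie left of it in both. The share of all genes on the same side in both was not counted.

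Of the 30 members with a ratio in all 4 comparisons, 14 passed 2-fold in none (46.7%), where 55.1% of 12691 genes passed in none: Ddx58, Adar, Irf1, Irf3, Irf9, Stat2, Isg15, Parp9, Dtx3l, Bst2, Samd9l, Xaf1, Parp12 and Ifi27. They include Irf9 and Stat2. Gbp3 reached 20 reads in a single library, with 24 reads, and its log2 ratios were -0.37 for knockdown in normal culture and 0.06 for OGD in control cells.

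The rest of the pathway was read from lists of other genes. Of 42 ligand, receptor and signalling genes, 30 had a row, and the type I interferon genes Ifnb1, Ifna1, Ifna2 and Ifna4, and Ifng, had none in the tables used here. Ifnar1 had 930 reads in knockdown cells and 746 in control cells under OGD, against 883 in knockdown and 834 in control cells in normal culture, and all 4 of its log2 ratios lay between -0.05 and 0.26. Ifnar2, with 1168 to 1634 reads, lay between -0.11 and 0.46. Ifnar1 and Ifnar2 were thus well covered and close to level. Il10rb, another receptor gene of the list, was at least 2-fold lower for OGD in knockdown cells. With knockdown, 1 of 26 genes of this list was at least 2-fold higher and 0 lower under OGD, and 4 of 28 were higher and 1 lower in normal culture. All genes had 10.4% higher and 4.1% lower under OGD, and 6.29% and 16.3% in normal culture, so that this list had 3.85% and 0% under OGD and 14.3% and 3.57% in normal culture. The gene higher in both was Zbp1, a sensor of Z-form nucleic acids, with 23 reads in knockdown cells and 0 in control cells under OGD, against 69 in knockdown and 11 in control cells in normal culture. The others in normal culture were Tmem173, which encodes STING, with 180 reads in knockdown cells and 50 in control cells, Irf5 with 53 in knockdown and 15 in control cells, and Tlr3 with 108 in knockdown and 44 in control cells. Irf8 had 0 reads in knockdown cells and 39 in control cells in normal culture, and 0 in control cells under OGD. Under OGD against normal culture, 1 of 27 genes was higher and 6 lower in knockdown cells, and 2 higher and 3 lower of 27 in control cells. That is 3.70% higher and 22.2% lower in knockdown cells, against 18.9% and 17.1% of all genes, and 7.41% and 11.1% in control cells, against 10.4% and 20.4%. Tlr3, the endosomal receptor of double-stranded RNA, and Myd88, an adaptor of Toll-like receptors, were lower in both. Tlr3 had 11 reads under OGD and 108 in normal culture in knockdown cells, and 5 under OGD and 44 in normal culture in control cells. Myd88 had 356 reads under OGD and 904 in normal culture in knockdown cells, and 195 under OGD and 688 in normal culture in control cells.

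A second list held 78 other interferon-induced genes, 67 of them with a row. Zbp1 is in this list as well as in the one above, and its calls count in both. With knockdown, 6 of 43 were at least 2-fold higher and 5 lower under OGD, and 9 of 50 were higher and 5 lower in normal culture, with medians of 0.04 under OGD and 0.11 in normal culture. These are 14.0% higher and 11.6% lower under OGD, against 10.4% and 4.1% of all genes, and 18% and 10% in normal culture, against 6.29% and 16.3%. Under OGD against normal culture, 3 of 47 were higher and 11 lower in knockdown cells, and 4 of 46 were higher and 10 lower in control cells, with medians of -0.37 in knockdown cells and -0.08 in control cells. These are 6.38% higher and 23.4% lower in knockdown cells, against 18.9% and 17.1% of all genes, and 8.70% and 21.7% in control cells, against 10.4% and 20.4%. The largest ratio was that of Cxcl10, a chemokine that draws T cells. It had 380 reads in knockdown cells and 14 in control cells under OGD, against 187 in knockdown and 63 in control cells in normal culture, and was 21.3-fold higher with knockdown under OGD (12.5 to 39.3) and 2.71-fold higher in normal culture (2.02 to 3.66). No member of the 36 reached such a ratio with knockdown under OGD. Low counts set many of the other calls. With knockdown in normal culture Ifitm1 had 0 against 39 reads and Nlrc5 had 40 against 0, and under OGD Sp110 had 1 against 31. For OGD in knockdown cells Ifitm1 had 65 against 0, and for OGD in control cells Oas1c had 0 against 38. Lgals3bp, a secreted glycoprotein, was better covered, with 375 reads under OGD and 1685 in normal culture in knockdown cells, 4.12-fold lower (3.68 to 4.62). Mx2, a classical antiviral effector, had 15 reads in knockdown cells and 0 in control cells under OGD, against 13 in knockdown and 0 in control cells in normal culture, under the floor of 20 reads.

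The authors' deposited table gave no member an adjusted p-value under 0.05 in any of the 4 comparisons. The authors' deposited table held such a value for 23 of 18502 genes for knockdown under OGD, 477 of 18309 for knockdown in normal culture, 17 of 17951 for OGD in knockdown cells and 228 of 18879 for OGD in control cells. In the authors' deposited table the unadjusted p-value was under 0.05 for 1 member in 1 comparison, Isg20 for OGD in control cells, with p = 0.0249 and an adjusted p of 0.757. The lowest for OGD in knockdown cells in the authors' deposited table was that of Ifit2, at 0.0551. With 1 library on each side, no spread between cultures was measured behind those values.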

How the data were processed

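RNA labelled as from HT22 cells was sequenced in 4 libraries, 1 per group. Per the labels' protocols, total RNA was isolated with TRIzol, fragmented, copied into cDNA with deoxy-UTP in a single strand and amplified by PCR. The submitters' processing notes name TopHat2 and the build mm10; the counter, the annotation and any use of strand are not stated there or in the labels. The authors deposited 4 tables, each with 2 of the libraries. Per the file headers these hold scaled mean counts (a signal per library), a fold ratio, its log2 and p-values. A further pair of deposited columns carries no unit and was read as FPKM from its values.

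Each scaled value was a whole read count divided by a size factor, and whole reads were recovered for 100% of values at a tolerance of 1e-06, the same in both tables of a library. The recovered counts of the deposited tables came to between 17232866 and 20764430 per library. The plan had a branch for each possible unit, and the branch for scaled counts was used. Names came from a table of gene identifiers (19912 of 20089 genes), positions and overlaps from GENCODE mouse release 21 and promoters from RefSeq. TMM factors were 1.03, 0.893, 1.03 and 1.05 for knockdown OGD, control OGD, knockdown normal and control normal (edgeR 4.0.16, R 4.3.3). Ratios were computed per table with 10 added, where the higher library had 20 reads or more, using scipy 1.17.1, pandas 2.3.3 and numpy 2.4.6 under Python 3.11.15; plots used matplotlib 3.10.9. Intervals are exact conditional binomial at 95% and cover counting error only, since PCR copies carry no identifiers; a count of 0 was set to 3 reads for bounds. No p-value was computed. The ratios and their calls were run on simulated data with counting error only and no spread between cultures. The genes changed there averaged 100 reads or more, so changes in members with fewer reads were not covered.

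The members, gene lists and markers were chosen with earlier results of these data known. Values in every library are given for members past 2-fold in at least 1 comparison and for Stat2, Irf9, Irf3, Irf7, Eif2ak2 and Adar; other lists are given by counts and their largest ratios, and 1 gene of these lists is not reported here. Alternatives were TMM or total-read scaling, 1 or 50 added, no floor or 100 reads as the floor, and the FPKM ratio with 1 added.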

Additional observations from a re-analysis of the deposited data

Results flagged for a closer look

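In 2 members the ratio pointed one way in one group and the opposite way in the other, with counting intervals that excluded no difference on both sides and at least 1 ratio past 2-fold. Each was 1 of 30 members (3.33%), where 8.86% of all genes met the rule between the knockdown ratios and 7.44% between the OGD ratios. The difference itself was not tested, since each group holds 1 library. The log2 knockdown ratio of Ifit2 was -1.17 under OGD (18 against 43 reads) and 0.74 in normal culture (299 against 159 reads); the deposited FPKM values gave -0.05 under OGD. The log2 OGD ratio of Oasl2 was 0.57 in knockdown cells (101 against 71 reads) and -1.54 in control cells (11 against 65 reads), and the 11 reads of control cells under OGD set both this and its knockdown ratio under OGD.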

How the results depend on the processing

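No paired analysis was possible because each group holds 1 library, and for the same reason no library could be left out. No ratio past 2-fold changed sign under any alternative; medians were taken as moved at 0.1 on the log2 scale and counts at 1.5 times. For knockdown in normal culture, members higher (3) became 0 with 50 added, 1 with a floor of 100 reads and 1 by FPKM. Members lower (3) became 0, 1 and 1, and the 1 higher by FPKM was Xaf1 (1.00), not among the 3. Over all genes, 6.29% higher became 1.41%, 3.16% and 3.81% under these settings, and 16.3% lower became 9.79%, 11.3% and 12.0%. For knockdown under OGD, members higher (3) became 5 by total reads, 5 with 1 added, 1 with 50 added, 1 at the floor of 100 and 1 by FPKM. Over all genes, 10.4% higher became 13.1%, 12.5%, 2.49%, 4.37% and 6.48% in that order. Members lower (1) became 0 with 50 added, at the floor of 100 and by FPKM. Over all genes, 4.1% lower became 1.43%, 2.59% and 1.59% under these 3 settings. For OGD in control cells, members higher (4) became 2 under those last 3 settings, and members lower (8) became 2, 4 and 3. Over all genes, 10.4% higher became 7.08%, 10.5% and 5.07%, and 20.4% lower became 11.6%, 15.7% and 19.6%. The fewer calls with 50 added or at the floor of 100 follow from how these settings are built. The median for knockdown under OGD (0.14) was 0.33 by total reads and 0.32 by FPKM, that for OGD in control cells (-0.14) was -0.45 and -0.37, and that for OGD in knockdown cells (-0.08) was 0.15 at the floor of 100, 0.032 with no floor and 0.030 by FPKM. Scaling by total reads moved the median of all genes to 0.19 for knockdown under OGD and to -0.34 for OGD in control cells. In the second, 6.08% of genes were then higher and 26.8% lower. By FPKM the median of all genes moved to 0.17 for knockdown under OGD and to -0.30 for OGD in control cells. For OGD in knockdown cells it was -0.03 at the floor of 100, 0.12 with no floor and 0.02 by FPKM. The cause of these shifts was not tested.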
